A study of Mus musculus with 4 samples.

Results

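The genes described here make up the synthesis branch of the sterol regulatory element binding protein (SREBP) pathway, in ventricle that overexpresses Cdk8 and in wild-type ventricle. The 33 members were chosen by symbol, as the regulators of the pathway and the enzymes of cholesterol and fatty acid synthesis, from 23847 rows of the expression table, and all 33 had a row of their own. The Cdk8Tg samples came from male C57BL/6 mice at postnatal day 21 with cardiac-specific overexpression of Cdk8, the cyclin-dependent kinase of the Mediator complex, and the controls from wild-type (WT) males of the same background and age. Polyadenylated RNA of the ventricle was sequenced from 2 samples per group, so cardiomyocytes and all other cells of the ventricle were measured together. Not given in the sources used here were the promoter that drives the transgene and the number of lines. Nothing in the labels says that each library came from its own animal, and the spread that the p-values rest on may therefore be technical.

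SREBPs are transcription factors that are made as membrane proteins of the endoplasmic reticulum. When sterols are scarce, Scap carries them to the Golgi, where proteases release the active part, and when sterols are plentiful the Insig proteins hold Scap back. The Srebf2 product is best known for the cholesterol genes and the main Srebf1 products for the fatty acid genes. In mouse liver and in the fly, CDK8 with its cyclin is known to phosphorylate nuclear SREBP and to promote its degradation. The adult heart makes little fatty acid from acetyl-CoA and burns most of what it takes up.

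All values below are FPKM, fragment counts normalised to transcript length and library size, and log2 changes are Cdk8Tg minus WT on the scale of log2(FPKM + 1), which understates the change of low genes. A gene was called when limma, fitted over all 11888 rows with a mean of at least 1 FPKM, gave a Benjamini-Hochberg adjusted p under 0.05. Cdk8 itself reached 7309 and 8122 FPKM in Cdk8Tg, against 7.89 and 9.86 FPKM in the WT libraries. Depth, read from the steps between low FPKM values, came to about 12310000 and 11830000 fragments in Cdk8Tg and 14070000 and 14060000 in WT, if each library was scaled by its own total. On the deposited scale the tested genes had a median log2 change of 0.13, and scaling by median of ratios moved it to 0.0012, so counts are given on both scales. The 10 cardiomyocyte markers summed to 40224 and 38305 FPKM in Cdk8Tg and 59049 and 56634 FPKM in WT, and 7 of the 10 were called lower. In such bulk samples fewer cells of a type and less RNA per cell cannot be told apart. Of 9 fibroblast markers, 6 were called higher, with sums of 1185 and 1524 FPKM in Cdk8Tg and 988 and 908 FPKM in WT. Of 9 macrophage markers, 4 were called lower, with sums of 118 and 155 FPKM in Cdk8Tg and 199 and 199 FPKM in WT. The part of these cell types in the results was not tested.

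Promoter windows of 27 members are held in RefSeq (GRCm38.p6), from 250 bases before to 50 bases after the annotated start. Those of Insig1, Sc4mol and Nsdhl are shown because these genes were called higher in Cdk8Tg, and that of Hmgcs1, a textbook SREBP target, because it was not called. Capitals mark matches, on either strand, to the CCAAT box (letters CCAAT, read as ATTGG on the other strand), which NF-Y binds, and to the sterol regulatory element (letters TCACNCCAC). The windows lie on GRCm38.p6 at chr5:28071162-28071461 on the plus strand (Insig1), chr8:64733529-64733828 on the minus strand (Sc4mol), chrX:72918271-72918570 on the plus strand (Nsdhl) and chr13:119690101-119690400 on the plus strand (Hmgcs1).
Insig1: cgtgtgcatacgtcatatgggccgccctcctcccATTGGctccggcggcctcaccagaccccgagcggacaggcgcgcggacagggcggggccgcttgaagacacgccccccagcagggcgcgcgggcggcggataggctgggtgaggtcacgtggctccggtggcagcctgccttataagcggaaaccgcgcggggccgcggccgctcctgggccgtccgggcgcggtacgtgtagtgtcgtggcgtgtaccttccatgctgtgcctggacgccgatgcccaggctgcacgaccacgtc
Sc4mol: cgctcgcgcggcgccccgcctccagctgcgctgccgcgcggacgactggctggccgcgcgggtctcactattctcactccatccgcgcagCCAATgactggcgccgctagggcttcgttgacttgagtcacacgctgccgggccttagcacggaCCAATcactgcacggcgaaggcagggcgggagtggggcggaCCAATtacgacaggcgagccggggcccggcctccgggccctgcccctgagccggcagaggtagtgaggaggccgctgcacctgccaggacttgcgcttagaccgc
Nsdhl: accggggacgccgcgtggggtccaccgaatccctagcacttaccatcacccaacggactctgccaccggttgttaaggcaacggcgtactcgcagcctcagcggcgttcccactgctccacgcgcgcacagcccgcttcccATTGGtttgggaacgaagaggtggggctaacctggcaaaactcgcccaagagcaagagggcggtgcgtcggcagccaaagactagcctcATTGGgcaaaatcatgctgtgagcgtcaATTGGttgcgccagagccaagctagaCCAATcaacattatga
Hmgcs1: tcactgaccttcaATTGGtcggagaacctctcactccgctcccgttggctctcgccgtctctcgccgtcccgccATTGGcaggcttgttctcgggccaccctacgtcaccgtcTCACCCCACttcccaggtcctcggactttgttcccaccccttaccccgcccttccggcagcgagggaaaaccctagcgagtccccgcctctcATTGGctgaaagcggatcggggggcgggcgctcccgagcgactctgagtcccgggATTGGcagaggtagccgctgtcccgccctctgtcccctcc
CCAAT boxes were found in 23 of the 27 members, counting any window of a gene, against 43.1% of the 8777 tested genes with a window. They were present in 8 of the 9 members called higher and in 14 of the 16 that were tested and not called. The sterol regulatory element as spelled was found in 1 of the 27, Hmgcs1, at -137 to -129 relative to the start, and in 1.39% of tested genes. GC boxes (GGGCGG) were found in 22 of 27 members and 69.9% of tested genes, and E-boxes (CACGTG) in 6 of 27 and 12%. No match of one motif overlapped a match of another in these windows, where 0 overlaps were counted. A match is a description of the letters and not a measured binding site.

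Among the 31 members that passed the filter, 9 were called higher in Cdk8Tg and 1 was called lower. The rises were Insig1, Pmvk, Cyp51, Sc4mol, Nsdhl, Acly, Acss2, Acaca and Elovl5, and the fall was Fdft1. Members were thus called higher in 29% of cases, and all tested genes in 16.9%. Lower calls made up 3.23% of the members and 7.98% of all tested genes. The median log2 change of the members was 0.22, against 0.13 for all tested genes. After median-of-ratios scaling 4 members were higher (Insig1, Pmvk, Sc4mol and Acaca), which is 12.9% against 7.96% of all tested genes, and Fdft1 was still lower, where 11.7% of all tested genes were. Quantile normalization gave the same counts of 4 higher and 1 lower, where 8.34% and 8.74% of all tested genes were. Scaled to equal FPKM sums, 14 members were higher, 45.2% against 41.2% of all tested genes, and 1 was lower, where 5.49% of all tested genes were. Both Cdk8Tg libraries lay above both WT libraries for 18 of the 31 members and below them for 3, and for all tested genes the shares were 49.2% and 21.1%. The sizes were modest, with log2 changes from -0.48 to 0.97. Lss and Elovl6 fell below the filter and were not tested.

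**Figure D1:**
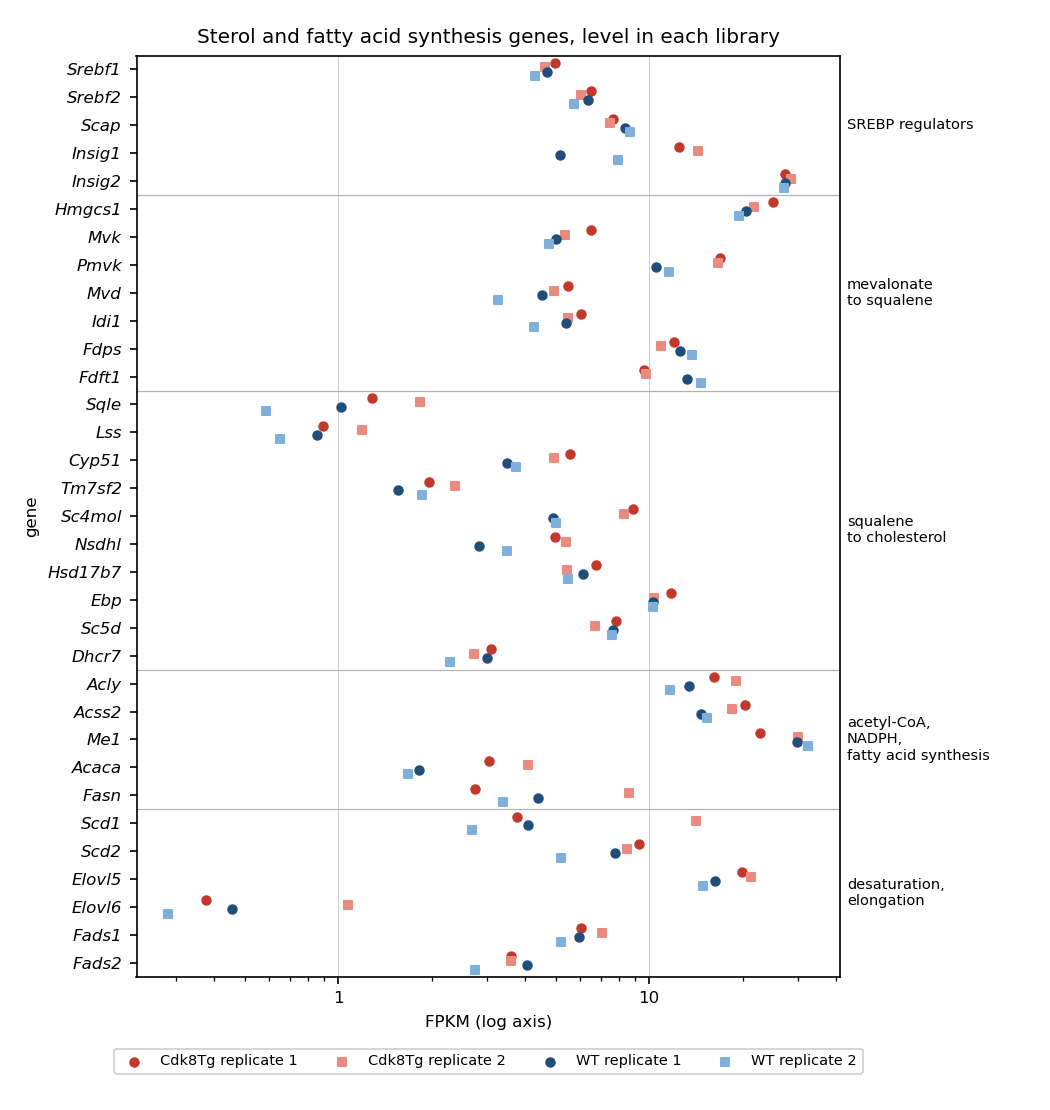
FPKM of the 33 members in each library on a log axis, grouped by role; red points are the 2 Cdk8Tg libraries and blue points the 2 WT libraries. Levels run from 0.285 FPKM (Elovl6 in WT replicate 2) to 32.4 FPKM (Me1 in WT replicate 2), and Fasn, Scd1 and Elovl6 have a single high point in Cdk8Tg replicate 2.

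By level, averaged over the 4 libraries on the FPKM scale, the members spanned 0.547 FPKM for Elovl6 to 28.8 FPKM for Me1. Me1, which makes NADPH in the cytosol, and Insig2 at 27.6 FPKM headed the order, and their ranges over the libraries overlapped. Hmgcs1 followed at 21.7, Elovl5 at 18.1, Acss2 at 17.2 and Acly at 15.1 FPKM. At the low end stood Tm7sf2 at 1.94, Sqle at 1.18 and Lss at 0.897 FPKM, so consecutive enzymes of the sterol route differed widely in transcript level. Fasn averaged 4.78 FPKM and Acaca 2.66 FPKM, both below their supplier Acly.

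Among the regulators, Insig1 was higher in Cdk8Tg, while Srebf1, Srebf2, Scap and Insig2 were not called. Insig1, which retains Scap and is itself a classic SREBP target, had 12.5 and 14.3 FPKM in Cdk8Tg, against 5.16 and 7.94 FPKM in WT. Both Cdk8Tg libraries lay above both WT libraries, and the WT libraries differed from each other by more than the Cdk8Tg libraries did. The means were 13.4 ± 1.31 FPKM in Cdk8Tg and 6.55 ± 1.96 FPKM in WT (SD, n = 2 each), and the log2 change was 0.95 ± 0.19 by limma (SE; adjusted p = 0.0239). It was the largest change among called members. The call was lost without Cdk8Tg replicate 2 (log2 change 0.86, limma adjusted p = 0.0841) and without WT replicate 1 (0.68, limma adjusted p = 0.0668). In the authors' deposited table Insig1 was at 15.2 FPKM in Cdk8Tg and 8.34 FPKM in WT with a q-value of 0.000864, and the same table called 5.53% of its 12393 tested genes higher and 8.43% lower. On GRCm38 the gene lies on chromosome 5 at 28071363 to 28078662.

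Insig2, the second retention protein, was at 27.4 and 28.5 FPKM in Cdk8Tg and 27.4 and 27.1 FPKM in WT, with a log2 change of 0.04 and a 95% confidence interval of -0.16 to 0.23. The ratio of Insig1 to Insig2 within a library was 0.455 and 0.502 in Cdk8Tg and 0.189 and 0.293 in WT. Srebf1 was at 4.98 and 4.62 FPKM in Cdk8Tg, against 4.69 and 4.29 FPKM in WT. Its interval ran from -0.18 to 0.34, and that of Srebf2 from -0.20 to 0.30. Srebf2 was at 6.51 and 6.04 FPKM in Cdk8Tg and 6.36 and 5.74 FPKM in WT. Scap was at 7.65 and 7.47 FPKM in Cdk8Tg, below 8.38 and 8.69 FPKM in WT, without a call (log2 change -0.16, interval -0.37 to 0.06). The signs of Srebf1, Srebf2 and Insig2 turned negative after median-of-ratios scaling. These are transcript levels and say nothing of the processed proteins.

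Along the route from acetyl-CoA to squalene, 1 of 7 enzymes was higher and 1 was lower. The shares of all tested genes were 16.9% and 7.98%. After median-of-ratios scaling 1 was again higher and 1 lower (7.96% and 11.7% of all tested genes). With equal FPKM sums 4 were higher and 1 lower (41.2% and 5.49%). Pmvk, phosphomevalonate kinase, stood at 16.9 and 16.7 FPKM in Cdk8Tg, against 10.6 and 11.6 FPKM in WT. The groups did not overlap and the spread within each was small. Its log2 change was 0.56 ± 0.09 (SE; limma adjusted p = 0.014), with means of 16.8 ± 0.147 FPKM in Cdk8Tg and 11.1 ± 0.71 FPKM in WT (SD, n = 2 per group). Pmvk was not called in the authors' deposited table, with a q-value of 0.234. Fdft1, squalene synthase, which commits farnesyl diphosphate to sterols, was lower, at 9.64 and 9.74 FPKM in Cdk8Tg and 13.2 and 14.7 FPKM in WT. The log2 change of Fdft1 was -0.48 ± 0.09 (SE; limma adjusted p = 0.0216). It was lost when any single library was left out, with adjusted p of 0.0575 to 0.126, and the authors' deposited table gave it a q-value of 0.714. Exons of Fdft1 overlap those of Ctsb on the opposite strand, and no source used here says whether the authors counted by strand. Ctsb, a lysosomal protease, was at 122 and 131 FPKM in Cdk8Tg and 117 and 117 FPKM in WT. Of the 31-base stretches of Fdft1, 14.3% occur in other annotated genes.

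The other enzymes of this stretch were not called. Hmgcs1, which forms HMG-CoA, was at 25.0 and 21.7 FPKM in Cdk8Tg and 20.5 and 19.4 FPKM in WT, with a log2 change of 0.22 (interval -0.03 to 0.46). For Mvk, Mvd and Idi1 both Cdk8Tg libraries also lay above both WT libraries, with log2 changes of 0.24, 0.35 and 0.22. Fdps, farnesyl diphosphate synthase, went the other way, at 12.0 and 10.9 FPKM in Cdk8Tg and 12.5 and 13.7 FPKM in WT (log2 change -0.18). Other annotated genes hold 27.9% of the 31-base stretches of Fdps, so its value is uncertain. Fdps and its neighbour in the route, Fdft1, were thus the members of this stretch with lower means in Cdk8Tg, and the scaling to equal sums turned the sign of Fdps.

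From squalene to cholesterol, 3 of 9 tested enzymes were higher, where 16.9% of all tested genes were, and after median-of-ratios scaling 1 of 9 was, where 7.96% of all tested genes were. Sc4mol, the methylsterol monooxygenase now named Msmo1, was at 8.86 and 8.32 FPKM in Cdk8Tg, against 4.89 and 5.0 FPKM in WT. The libraries of each group lay close together and the groups were far apart. Its log2 change was 0.69 ± 0.09 (SE; limma adjusted p = 0.0101), with means of 8.59 ± 0.385 FPKM in Cdk8Tg and 4.95 ± 0.0747 FPKM in WT (SD, n = 2 per group). Nsdhl, the sterol dehydrogenase that acts with Sc4mol in the removal of methyl groups, was at 4.99 and 5.38 FPKM in Cdk8Tg and 2.83 and 3.49 FPKM in WT, with a log2 change of 0.58 ± 0.12 (SE; limma adjusted p = 0.0272). Cyp51, lanosterol demethylase, was at 5.58 and 4.95 FPKM in Cdk8Tg and 3.49 and 3.73 FPKM in WT, with a log2 change of 0.44 ± 0.11 (SE; limma adjusted p = 0.0377). These 3 enzymes remove methyl groups from lanosterol, together with Hsd17b7, which was at 6.73 and 5.44 FPKM in Cdk8Tg and 6.13 and 5.49 FPKM in WT and was not called. None of them was called in the authors' deposited table, with q-values of 0.0691 for Sc4mol, 0.179 for Nsdhl and 0.252 for Cyp51. Nsdhl and Cyp51 lost their call after median-of-ratios scaling and whenever a library was left out. Exons of Cyp51 overlap Akap9 on the opposite strand, which was at 9.67 and 9.13 FPKM in Cdk8Tg and 7.55 and 8.14 FPKM in WT.

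The entry enzymes of this stretch were low and variable. Sqle, squalene epoxidase, was at 1.28 and 1.84 FPKM in Cdk8Tg, against 1.02 and 0.585 FPKM in WT. The groups did not overlap, but the libraries of each group differed, and the log2 change of 0.51 ± 0.19 was not called (SE; limma adjusted p = 0.107). Lss, lanosterol synthase, was at 0.896 and 1.19 FPKM in Cdk8Tg and 0.852 and 0.649 FPKM in WT and was not tested. The later enzymes Tm7sf2, Hsd17b7, Ebp, Sc5d and Dhcr7 had log2 changes of -0.06 to 0.22 with no call. Dhcr7, which forms cholesterol in the last step of its branch, was at 3.09 and 2.73 FPKM in Cdk8Tg and 3.01 and 2.28 FPKM in WT. Summed over the 17 sterol enzymes, the level was 135 and 124 FPKM in Cdk8Tg and 113 and 113 FPKM in WT, while FPKM over all rows summed to 448495 and 440324 in Cdk8Tg and 510844 and 508247 in WT.

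**Figure D2:**
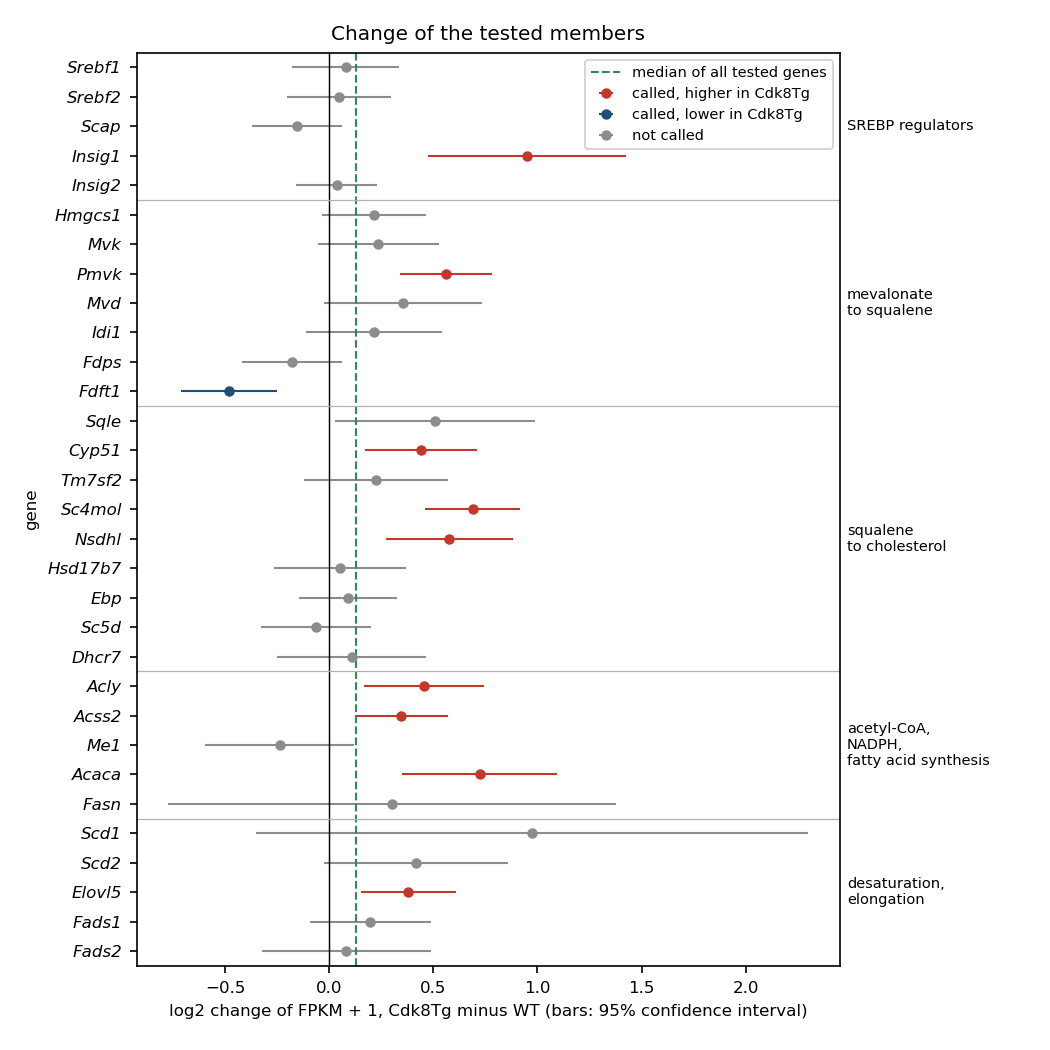
Log2 change (Cdk8Tg minus WT, horizontal axis) of the 31 tested members with 95% confidence intervals from limma; red marks the 9 called higher, blue the 1 called lower, grey those not called, and the dashed line the median of all tested genes (0.13). Insig1 has the largest called change at 0.95, and the intervals of Fasn and Scd1 are the widest.

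Of the 5 genes that supply acetyl-CoA and NADPH and build palmitate, 3 were higher, where 16.9% of all tested genes were. The count was 1 of 5 after median-of-ratios scaling (7.96% of all tested genes), after quantile normalization (8.34%) and with the replicate number as a block (15.6%). It was also 1 of 5 without a variance trend, where 1805 of 11888 tested genes were higher. With equal FPKM sums 3 of 5 were higher, where 41.2% of all tested genes were. Acaca, the acetyl-CoA carboxylase of fatty acid synthesis, was at 3.05 and 4.09 FPKM in Cdk8Tg, against 1.82 and 1.68 FPKM in WT. The groups did not overlap, and the mean in Cdk8Tg was 2.04-fold that in WT. Its log2 change was 0.72 ± 0.15 (SE; limma adjusted p = 0.0253), with a q-value of 0.00159 in the authors' deposited table. The call was lost without Cdk8Tg replicate 2 (0.56, limma adjusted p = 0.0707) and without WT replicate 1 or 2 (0.76 and 0.69, limma adjusted p = 0.096 and 0.129). Of its 31-base stretches 33.4% occur in other annotated genes, nearly all in a pseudogene, so the level is uncertain. Acly, which splits citrate into acetyl-CoA, was at 16.2 and 19.0 FPKM in Cdk8Tg and 13.4 and 11.7 FPKM in WT (log2 change 0.46 ± 0.12, SE; limma adjusted p = 0.0423). Acss2, which makes acetyl-CoA from acetate in cytosol and nucleus, was at 20.3 and 18.5 FPKM in Cdk8Tg and 14.7 and 15.4 FPKM in WT (0.35 ± 0.09, SE; limma adjusted p = 0.043). Acly and Acss2 lost their call after median-of-ratios scaling, with the replicate number as a block and without a variance trend. Their q-values in the authors' deposited table were 0.251 and 0.539. Exons of Acss2 overlap Gss on the opposite strand, which was at 11.2 and 12.2 FPKM in Cdk8Tg and 6.98 and 8.01 FPKM in WT.

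Me1, the cytosolic malic enzyme, was not called. It was at 22.8 and 30.1 FPKM in Cdk8Tg and 29.8 and 32.4 FPKM in WT, with overlapping groups. Other annotated genes hold 30% of its 31-base stretches.

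Fasn, Scd1 and Elovl6 had high levels in Cdk8Tg replicate 2 alone. Fasn, fatty acid synthase, was at 2.75 and 8.61 FPKM in Cdk8Tg, against 4.39 and 3.395 FPKM in WT. The first Cdk8Tg library lay below both WT libraries and the second above both. Scd1, a desaturase that makes monounsaturated fatty acids, was at 3.76 and 14.1 FPKM in Cdk8Tg and 4.07 and 2.69 FPKM in WT. Elovl6, which extends palmitate, was at 0.376 and 1.07 FPKM in Cdk8Tg and 0.454 and 0.285 FPKM in WT. Neither tested gene was called, with log2 changes of 0.30 (interval -0.77 to 1.38) for Fasn and 0.97 (-0.35 to 2.30) for Scd1. Without Cdk8Tg replicate 2 the changes were -0.38 and 0.14, and without Cdk8Tg replicate 1 they were 0.98 and 1.81, both called (limma adjusted p = 0.0239 and 0.0114). The authors' deposited table called Scd1 higher, at 9.86 FPKM in Cdk8Tg and 4.23 FPKM in WT (q-value 0.000864).

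The same library also stood apart in markers of several cell types. Of 10 adipocyte markers, 7 had their highest level in Cdk8Tg replicate 2, and so did 3 of 5 brown adipocyte markers. The 8 adipocyte markers other than Lipe and Fabp4, which exceeded 5 FPKM in every library, summed to 0.806 and 29.4 FPKM in Cdk8Tg, against 3.15 and 0.408 FPKM in WT. Adipoq, the gene of adiponectin, was at 0.0709 and 3.08 FPKM in Cdk8Tg and 0.31 and 0.0619 FPKM in WT. Pck1 was at 0.0614 and 12.6 FPKM in Cdk8Tg and 0.0269 and 0.161 FPKM in WT. The other adipocyte markers did not follow, with Retn listed at 0 in both Cdk8Tg libraries and in WT replicate 2 and at 0.807 FPKM in WT replicate 1, and Lipe and Fabp4 highest in WT replicate 2. Over all 10 the sums were 765 and 960 FPKM in Cdk8Tg and 968 and 1028 FPKM in WT, set almost wholly by Fabp4, and the number listed at 0 was 3 and 1 in the Cdk8Tg libraries and 0 and 4 in the WT libraries. Of the brown fat markers, Ucp1 was at 10.7 FPKM in Cdk8Tg replicate 2 and listed at 0 in the other 3 libraries, and the 5 summed to 18.5 and 40.7 FPKM in Cdk8Tg and 20.2 and 19.6 FPKM in WT. Prdm16 was at 2.29 and 2.20 FPKM in Cdk8Tg and 2.26 and 2.40 FPKM in WT, and Elovl3 was below 0.1 FPKM in every library. Dio2 and Cidea were, like Ucp1, highest in Cdk8Tg replicate 2. In the authors' deposited table Dio2 was at 2.54 FPKM in Cdk8Tg and 0.383 FPKM in WT, and Cidea at 22.4 and 21.9 FPKM. Those are values of a whole group and cannot show a single library. With all libraries, 1 of 4 tested brown adipocyte markers and 0 of 4 tested adipocyte markers were called higher, where 16.9% of all tested genes were. The 7 smooth muscle markers summed to 1399 and 1903 FPKM in Cdk8Tg and 1280 and 1274 FPKM in WT, with 5 of them highest in Cdk8Tg replicate 2. All 9 fibroblast markers were highest in that library as well. The 7 atrial markers summed to 145 and 449 FPKM in Cdk8Tg and 341 and 81.1 FPKM in WT. The part of these cell types in the levels of Fasn, Scd1 and Elovl6 was not tested. Members called higher numbered 2, Pmvk and Sc4mol, when Cdk8Tg replicate 2 was left out, where 5.91% of all tested genes were called higher.

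**Figure D3:**
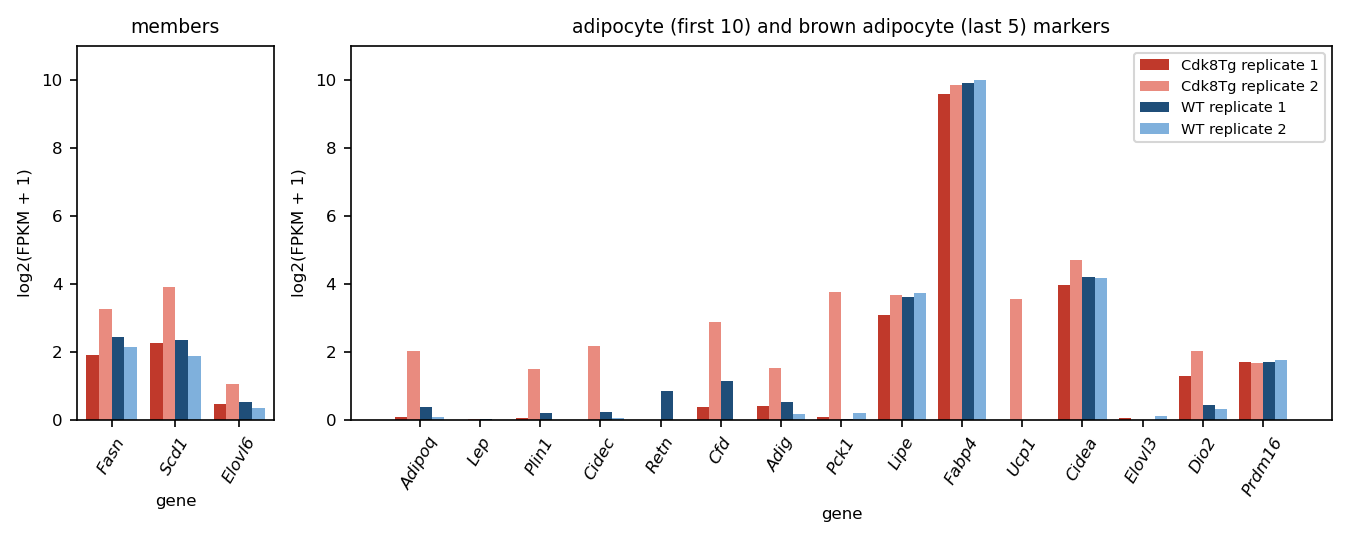
Level as log2(FPKM + 1) (vertical axis) of Fasn, Scd1 and Elovl6 (left panel) and of all 10 adipocyte and 5 brown adipocyte markers (right panel); dark red bars show Cdk8Tg replicate 1, light red Cdk8Tg replicate 2, dark blue WT replicate 1 and light blue WT replicate 2. Cdk8Tg replicate 2 has the highest bar for the 3 members, for 7 of the 10 adipocyte markers and for 3 of the 5 brown adipocyte markers, and not for Retn, Lipe, Fabp4, Elovl3 and Prdm16.

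Among the genes that desaturate and elongate fatty acids, 1 of 5 tested was higher, where 16.9% of all tested genes were. The count was 0 after median-of-ratios scaling and 0 after quantile normalization, where 7.96% and 8.34% of all tested genes were higher. With equal FPKM sums 2 were higher, where 41.2% of all tested genes were. Elovl5, an elongase of polyunsaturated fatty acids, was at 19.9 and 21.3 FPKM in Cdk8Tg, against 16.3 and 14.9 FPKM in WT. Its groups did not overlap, and the log2 change was 0.38 ± 0.09 (SE; limma adjusted p = 0.0364). The Elovl5 call was lost after median-of-ratios scaling, after quantile normalization, with no filter on low values and when any single library was left out. It was kept with equal FPKM sums, with the replicate number as a block and without a variance trend. The authors' deposited table gave Elovl5 a q-value of 0.462. Scd2, a desaturase of the same gene cluster as Scd1, was at 9.28 and 8.46 FPKM in Cdk8Tg and 7.78 and 5.22 FPKM in WT, without a call (0.42, limma adjusted p = 0.136). Fads1 and Fads2, the desaturases that introduce further double bonds, had log2 changes of 0.20 and 0.08 with no call.

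**Figure D4:**
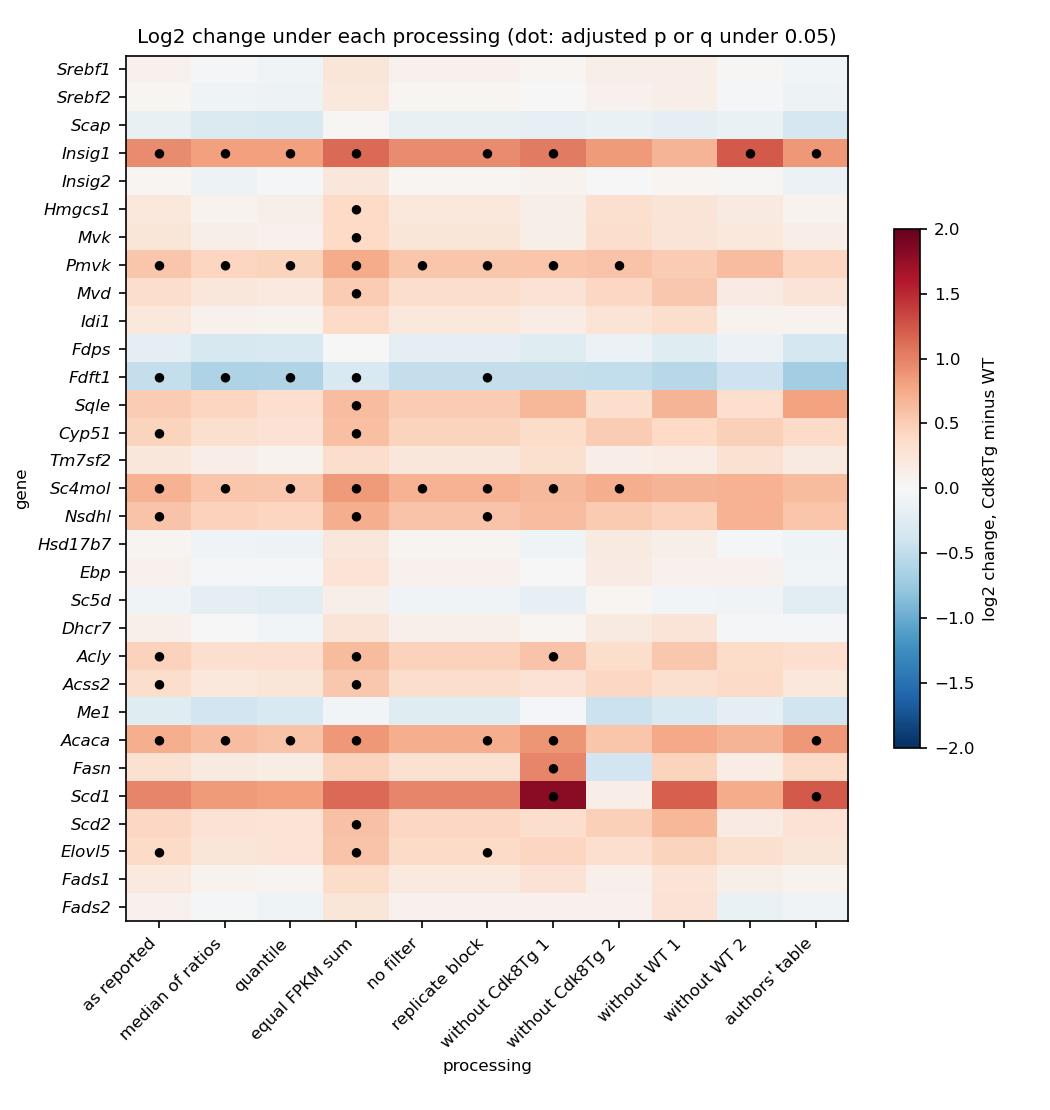
Log2 change (colour, Cdk8Tg minus WT) of the 31 tested members (vertical axis) under 11 ways of processing (horizontal axis), the first being the one reported and the last the authors' deposited table; a dot marks an adjusted p or q under 0.05. Insig1, Pmvk, Sc4mol, Acaca and Fdft1 have a dot under all 3 rescalings, and with any WT library left out at most 1 member, Insig1, keeps its dot.

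Calls rested on all 4 libraries. Without Cdk8Tg replicate 1, 5 of the 10 called members kept their call, all of them higher, and Fasn and Scd1 were called as well, where 12.9% of all tested genes were higher and 7.14% lower. Without Cdk8Tg replicate 2, 2 kept it, where 5.06% of all tested genes were lower. Without WT replicate 1 the 10 members had limma adjusted p of 0.0609 to 0.173, so 0 kept the call, where 3.02% of all tested genes were higher and 2.26% lower. Without WT replicate 2 only Insig1 kept it, where 1.22% were higher and 1.19% lower. Over all tested genes the calls without one library were 2380, 1304, 628 and 287 in that order, against 2958 with all 4, and each such fit had 1 residual degree of freedom. With the replicate number as a block 6 members were higher and 1 lower, where 15.6% of all tested genes were higher and 8.16% lower. With no filter on low values Pmvk and Sc4mol were the 2 members called, both higher, where 3.57% of all tested genes were higher and 2.31% lower. Pmvk and Sc4mol had log2 changes of 0.50 to 0.62 and 0.65 to 0.73 over the 4 fits that leave out a library.

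For 4 enzyme families, related genes were set beside the members. The families were chosen after their values were seen, and families in which no such difference was seen were not counted. Acaca rose, while Acacb, the mitochondrial-membrane carboxylase that controls fatty acid oxidation, fell to 22.4 and 22.5 FPKM in Cdk8Tg, against 36.4 and 39.8 FPKM in WT (-0.74 ± 0.08, SE; limma adjusted p = 0.00721). The ratio of Acaca to Acacb within a library was 0.136 and 0.182 in Cdk8Tg and 0.05 and 0.0422 in WT. The call of Acacb was lost without WT replicate 2 (limma adjusted p = 0.0606). A ratio within a library does not depend on the scaling between libraries. Acss2 rose, and Acss1, the mitochondrial acetyl-CoA synthetase, fell to 75.3 and 60.5 FPKM in Cdk8Tg, against 106 and 118 FPKM in WT (-0.71, limma adjusted p = 0.0187), a call lost without either WT library (0.0722 and 0.112). Scd4, a stearoyl-CoA desaturase known from mouse heart, was at 0.556 and 0.721 FPKM in Cdk8Tg and 6.42 and 2.89 FPKM in WT (-1.72 ± 0.31, SE; limma adjusted p = 0.0182). Both Cdk8Tg libraries were low, and the WT libraries differed from each other by more than a factor of 2. The call of Scd4 was lost without Cdk8Tg replicate 2 (limma adjusted p = 0.053) and with no filter on low values (limma adjusted p = 0.0701). The sum of Scd1 to Scd4 was 13.8 and 23.8 FPKM in Cdk8Tg and 18.4 and 10.96 FPKM in WT, with overlapping groups. Among the mitochondrial malic enzymes, Me2 was higher and Me3 lower, with Me2 at 10.2 and 9.03 FPKM in Cdk8Tg against 4.29 and 3.67 FPKM in WT (1.09), and Me3 at 16.03 and 16.4 FPKM in Cdk8Tg against 22.1 and 23.3 FPKM in WT (-0.46, limma adjusted p = 0.00632 and 0.0173). Leaving out Cdk8Tg replicate 2 or either WT library cost Me3 its call (limma adjusted p = 0.0548 to 0.111). Acss1, Scd4, Me2 and Me3 were chosen after their values were seen.

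**Figure D5:**
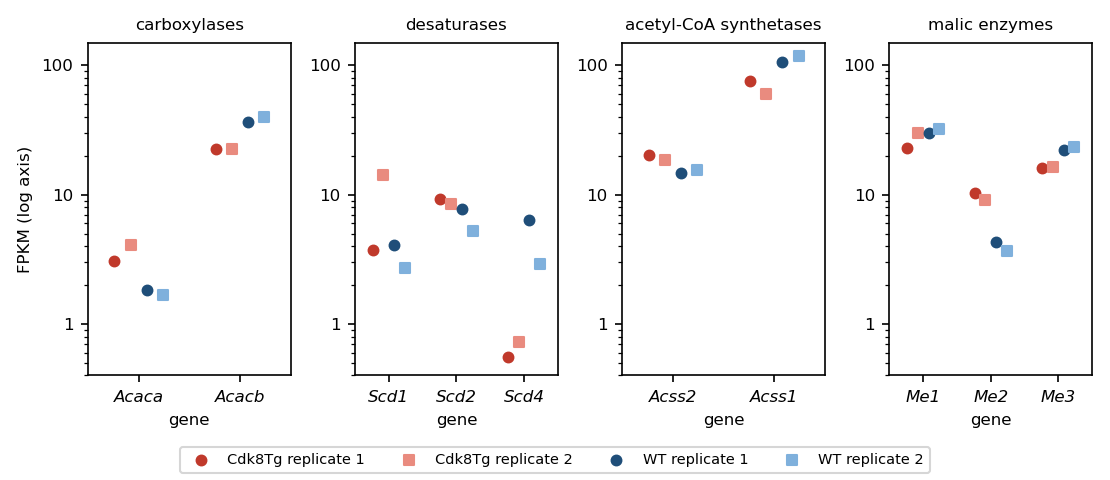
FPKM on a log axis in each library for genes of 4 enzyme families; red points are the Cdk8Tg libraries and blue points the WT libraries. Red points lie above blue for Acaca, Scd2, Acss2 and Me2 and below blue for Acacb, Acss1, Scd4 and Me3, and they overlap for Scd1 and Me1.

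Other genes of the sterol pathway were called in both directions. Of 29 tested genes of sterol synthesis, uptake and transport, 5 were higher and 3 lower, where 16.9% of all tested genes were higher and 7.98% lower. After median-of-ratios scaling 3 were higher and 4 lower (7.96% and 11.7% of all tested genes), and with equal FPKM sums 13 were higher and 3 lower (41.2% and 5.49%). Their median log2 change was 0.11, against 0.13 for all tested genes. Tmem97, a sterol-regulated protein that binds the lysosomal transporter Npc1, was at 11.7 and 12.1 FPKM in Cdk8Tg and 6.18 and 5.03 FPKM in WT (0.97, limma adjusted p = 0.0076). A pseudogene shares 25.6% of its 31-base stretches. Npc1, which exports cholesterol from lysosomes, was lower, at 6.35 and 7.50 FPKM in Cdk8Tg and 11.9 and 13.5 FPKM in WT (-0.79, limma adjusted p = 0.0123). Cyp27a1, the sterol hydroxylase of mitochondria, was at 17.3 and 22.8 FPKM in Cdk8Tg and 8.72 and 9.39 FPKM in WT (1.05, limma adjusted p = 0.0107). Ggps1, which takes farnesyl diphosphate toward protein prenylation, rose by 0.65 (limma adjusted p = 0.0119). Without WT replicate 2 these 4 genes lost their calls (limma adjusted p = 0.0515 to 0.0841), and without WT replicate 1 Npc1 and Cyp27a1 did (0.0502 and 0.0613).

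Of 22 genes that process, degrade or signal to SREBPs, 3 were higher and 1 was lower, where 16.9% of all tested genes were higher and 7.98% lower. After median-of-ratios scaling 2 were higher and 1 lower (7.96% and 11.7% of all tested genes). With equal FPKM sums 12 were higher and 1 lower (41.2% and 5.49%). Their median log2 change was 0.16, against 0.13 for all tested genes. Prkag2, a regulatory subunit of the AMP-activated kinase, was at 17.7 and 18.0 FPKM in Cdk8Tg and 8.62 and 8.26 FPKM in WT (1.002 ± 0.08, SE; limma adjusted p = 0.00407), and the catalytic subunit gene Prkaa1 had a log2 change of 0.37, a call lost after median-of-ratios scaling and when any single library was left out. Pgrmc1, a membrane protein that binds heme and is linked to Insig1, rose by 0.60, a call lost without Cdk8Tg replicate 2 or either WT library (limma adjusted p = 0.0696 to 0.111). Lpin1, a phosphatidate phosphatase that also acts in the nucleus, fell to 17.6 and 13.7 FPKM in Cdk8Tg, against 34.1 and 38.2 FPKM in WT (-1.17 ± 0.14, SE; limma adjusted p = 0.00758, and 0.0606 without WT replicate 2).

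Of 32 tested genes of fatty acid supply, elongation and activation, 9 were higher and 9 lower, where 16.9% of all tested genes were higher and 7.98% lower. After median-of-ratios scaling 4 were higher and 11 lower (7.96% and 11.7% of all tested genes), and with equal FPKM sums 11 were higher and 9 lower (41.2% and 5.49%). Their median log2 change was 0.08, against 0.13 for all tested genes. Mid1ip1, a protein that promotes the polymerization of acetyl-CoA carboxylase, had the largest fall among the genes named by rule from this list, at 14.9 and 15.1 FPKM in Cdk8Tg and 40.2 and 49.95 FPKM in WT (-1.52 ± 0.12, SE; limma adjusted p = 0.00381). Tecr, the reductase that completes each elongation cycle, was at 97.1 and 83.3 FPKM in Cdk8Tg and 219 and 199 FPKM in WT (-1.21, limma adjusted p = 0.00483). Acsl1, the main long-chain acyl-CoA synthetase of heart, and the transporter Slc27a1 changed by -0.85 and -1.32, and Acsl1 had an adjusted p of 0.0527 by limma without WT replicate 2. Hsd17b12, the ketoacyl reductase of the same elongation cycle as Tecr, named after its values were seen, rose by 0.66, a call lost without Cdk8Tg replicate 2 or WT replicate 2 (limma adjusted p = 0.0623 and 0.0907). Mlycd, which degrades malonyl-CoA, was at 31.6 and 34.2 FPKM in Cdk8Tg and 37.2 and 39.1 FPKM in WT, with no call (-0.21, limma adjusted p = 0.124).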

How the data were processed

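Reads of polyA-enriched, stranded mouse ventricle libraries were processed with TopHat 1.0.0, Cufflinks and Cuffdiff on mm10, per the submitters' processing notes. The authors deposited FPKM for each gene in each library; how libraries were scaled to each other, which annotation was used and whether strand was counted is not stated in any source used here. A second deposited table holds the authors' Cuffdiff group FPKM with a p-value and q-value.

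Since FPKM cannot enter a count model, log2(FPKM + 1) was fitted with limma 3.58.1 (R 4.3.3, trended variance, 2 residual degrees of freedom, no covariates) over the 11888 of 23847 rows with a mean of at least 1 FPKM. Benjamini-Hochberg adjusted p-values cover all of these rows. Depth was read from the steps between low FPKM values. Positions, exon overlaps and shared 31-base stretches come from GENCODE M21 (GRCm38) and promoters from RefSeq.

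The members, lists and tests were chosen with earlier results of these data known. Named genes were all members, up to 4 called genes per further list by smallest p, and Acacb and Mlycd, with some items of the rule not reported here; genes that overlap a member's exons, markers and genes introduced by name as chosen after their values were seen are exceptions. Alternatives were pseudocounts of 0.1 and 5, other filters, scalings and variance models, a replicate block, omission of each library, the authors' calls and a minimum log2 size of 0.5.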

Additional observations from a re-analysis of the deposited data

How the results depend on the processing

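The count of members called higher, 9, was 4 with median-of-ratios scaling, 4 with quantile normalization, 14 with equal FPKM sums, 2 with no filter on low values, 3 by the authors' deposited table (Insig1, Acaca and Scd1), 5 with a minimum log2 change of 0.5, and 0 to 7 without one library. The count lower, 1, was 0 with no filter, by the authors' deposited table and with the minimum change. Of all tested genes 7.98% were lower, against 2.31% with no filter and 8.43% by the authors' deposited table. The members' median log2 change, 0.22, was 0.11, 0.0896 and 0.40 under the 3 rescalings in the order above. Calls over all genes, 2958, were 5552 with equal sums, 1055 with no filter, 1730 by the authors' deposited table, 1844 with the minimum change and 287 to 2380 without one library. The other pathway genes called, 40, were 62 with equal sums, 23 with no filter, 25 by the authors' deposited table and 7 to 37 without one library. The pseudocounts and the robust variance left all 10 calls of members in place. The cause of these shifts was not tested beyond the scaling factors (1.04 and 1.07 in Cdk8Tg, 0.958 and 0.944 in WT).

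With the replicate number as a block, 6 members were higher and 1 lower, where 15.6% of all tested genes were higher and 8.16% lower; Cyp51, Acly and Acss2 lost their calls. The labels give no shared source behind the numbers, and same-numbered libraries did not deviate together (correlation -0.0256 across 11888 genes). Signs turned for members that were not called. With median-of-ratios scaling the log2 changes were -0.0432 (Srebf1), -0.081 (Srebf2), -0.11 (Insig2), -0.075 (Hsd17b7), -0.046 (Ebp), -0.0011 (Dhcr7) and -0.0319 (Fads2). With quantile normalization, for the same genes, they were -0.0745, -0.10, -0.036, -0.0999, -0.0374, -0.0566 and -0.0838, and in the authors' deposited table -0.0616, -0.10, -0.12, -0.0897, -0.0567, -0.0166 and -0.0693. With equal FPKM sums Scap, Fdps and Sc5d were at 0.0198, 0.0038 and 0.11. Without one library, Srebf2 ranged from -0.0173 to 0.11, Hsd17b7 from -0.08 to 0.18, Sc5d from -0.17 to 0.0367, Fasn from -0.38 to 0.98, Dhcr7 from -0.0369 to 0.25 and Fads2 from -0.13 to 0.30. Lss and Elovl6 lay below the filter.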

Other observations

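Genes of glycerolipid and phospholipid synthesis, which use the fatty acids described above, were called in both directions. Of 28 tested genes, 4 were higher and 6 lower in Cdk8Tg, where 16.9% of all tested genes were higher and 7.98% lower. After median-of-ratios scaling 3 were higher and 7 lower (7.96% and 11.7% of all tested genes), and with equal FPKM sums 10 were higher and 3 lower (41.2% and 5.49%). Their median log2 change was 0.06, against 0.13 for all tested genes. Dgat2, which completes triglyceride synthesis, was at 33.1 and 42.6 FPKM in Cdk8Tg, against 175 and 172 FPKM in WT. The groups were far apart, with a log2 change of -2.18 ± 0.13 by limma (SE; adjusted p = 0.00228). Agpat2, an acyltransferase earlier in the route whose exons overlap Egfl7 on the opposite strand, was at 11.2 and 14.4 FPKM in Cdk8Tg and 23.1 and 26.4 FPKM in WT (-0.91, limma adjusted p = 0.0133).

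Genes of phospholipid synthesis were called in either direction. Cds2, a CDP-diacylglycerol synthase, was at 41.6 and 42.4 FPKM in Cdk8Tg and 29.4 and 28.5 FPKM in WT (0.52, limma adjusted p = 0.0125). Pisd, which makes phosphatidylethanolamine in mitochondria, was at 20.9 and 21.2 FPKM in Cdk8Tg and 14.4 and 14.7 FPKM in WT (0.50, limma adjusted p = 0.014), and annotated genes on its own strand overlap its exons, so its value is uncertain. Without WT replicate 1 or 2, Dgat2 kept its call, and Agpat2, Cds2 and Pisd lost theirs (limma adjusted p = 0.054 to 0.0897), as Pisd did without Cdk8Tg replicate 2 (0.0502). Chkb, a choline kinase, and Chpt1, a cholinephosphotransferase, both named after their values were seen, were lower. Other annotated genes hold 47.9% of the 31-base stretches of Chkb, and its exons overlap an annotated gene on its own strand, so its value is uncertain. The authors' deposited table gave q-values of 0.751 for Chkb and 0.0424 for Chpt1. Chkb was at 14.0 and 15.2 FPKM in Cdk8Tg and 19.3 and 19.8 FPKM in WT (-0.40, limma adjusted p = 0.0279), and Chpt1 at 140 and 157 FPKM in Cdk8Tg and 185 and 208 FPKM in WT (-0.40, limma adjusted p = 0.0441). Both lost their calls with equal FPKM sums (limma adjusted p = 0.101 and 0.167) and when any single library was left out (0.0552 to 0.226).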
